A study of Atriplex lentiformis with 9 samples.

Results

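The ABC transporters expressed in the roots of quailbush (Atriplex lentiformis, a salt-tolerant shrub grown on metal-rich mine waste) are described here by subfamily. Members were all entries whose Arabidopsis protein name is AB, a number and a subfamily letter from A to I, and 58 of the 5164 entries listed in at least 1 library met that rule. They comprised 20 entries of subfamily G, 15 of B, 8 of C, 5 of I, 4 each of A and F, and 1 each of D and E. No entry carried the letter H. Whether several quailbush transcripts share 1 entry is not stated, so closely related paralogs are uncertain.

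ABC transporters bind and split ATP to move metabolites, hormones, lipids or conjugated toxins across membranes. In plants, subfamily B includes carriers of the hormone auxin, subfamily C includes vacuolar pumps for glutathione conjugates and phytate, and subfamily G exports lipids and transports hormones and defence compounds. Subfamilies E and F hold soluble proteins without membrane domains that act in translation, and subfamily I is a mixed group of single ATPase or membrane subunits, several of which work in plastids.

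The plants had grown for 11 weeks in mine tailings amended with 10% compost (TC10), 15% compost (TC15) or 20% compost (TC20), and their roots were sequenced. All plants grew in tailings, and no plant without tailings or without compost is among the samples. The comparison asks how root transcripts differed between compost levels, and the labels add the zinc, arsenic and lead content of each root. The 8 libraries used came from separate plants, 2 of TC10 (plants 2 and 4), 3 of TC15 (plants 2, 6 and 10) and 3 of TC20 (plants 3, 5 and 9). A file given for TC10 plant 5 was left out because all of its 4995 entries equal those of TC15 plant 6.

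The libraries held 3030394 to 4752637 reads. Of 15 root markers 5 were listed, the transcription factors SHR and SCR, COBL9 and the peroxidases PER64 and PER72. Their summed level was 4565 to 6901 normalised reads in 7 libraries and 14616 in TC20 plant 9, which also held the highest value of 21.1% of all tested entries and of 4 of the 50 tested ABC entries. Of 18 green-tissue markers only the chlorophyll-binding CB4B was listed, at 18.4 to 120 normalised reads. The part of these marker levels in the results was not tested, and in such whole-root samples fewer cells of a type and less RNA per cell cannot be told apart.

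ABC entries took 0.836% to 1.26% of the reads of a library. They took 0.973% ± 0.194 in TC10 (SD, n = 2), 1.10% ± 0.171 in TC15 (n = 3) and 1.07% ± 0.164 in TC20 (n = 3), so the treatment means lay within 1 SD of each other. Of all 335934 ABC reads, subfamily B held 39.8%, C 21.1%, F 16.5%, G 8.60%, E 4.84%, I 4.19%, D 3.31% and A 1.63%. These are shares of reads and not of molecules, because the values are not corrected for transcript length. The single entry AB15B held 23.1% of the subfamily B reads, and AB10C held 28.6% of the subfamily C reads. Subfamily G had the most entries, and AB14G held 25.7% of its reads. In every library 54 to 57 of the 58 entries had a read, and 52 had one in all 8 libraries.

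The test covered the 50 ABC entries that reached 10 normalised reads in at least 2 libraries, and 4801 entries in all. The 8 entries below that level were AB2B, AB17B, AB6C, AB7C, AB8C, AB20G, AB34G and AB43G, so the counts over 50 entries do not describe all members. With limma on log2(value + 1) and Benjamini-Hochberg adjustment over the 4801 entries, 0 of the 50 passed an adjusted p of 0.05 in the F test across the treatments, in any of the 3 pairwise contrasts or in any of the 3 slopes on root metals. Over all entries limma called 0.0208% in TC20 against TC15 and 0.0% in the other 6 comparisons. The lowest adjusted p of a member was 0.542. The edgeR quasi-likelihood test on recovered reads also called 0 in each of the 7 comparisons, with 0.0417% of all entries called for lead and 0.0% elsewhere. DESeq2, the tool named by the submitters for the test across treatments, called AB17I, and no other member, across the treatments and in TC20 against TC10. DESeq2 gave an adjusted p to 57 of the 58 members in those 2 comparisons, to 27 in TC15 against TC10 and to 46 for arsenic. It called 0.694% of all entries across the treatments, 0.277% for TC20 against TC10, 0.214% for TC20 set against TC15, 0.861% in TC15 against TC10, 0.116% for zinc, 0.219% for arsenic and 0.794% for lead.

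At an unadjusted limma p under 0.05 there were 5 ABC entries of 50 across the treatments, against 5.14% of all entries. There were 5 in TC20 against TC10 (all entries 4.29%), 1 in TC20 against TC15 (5.83%) and 5 in TC15 against TC10 (6.62%). These shares stand beside those of all entries as a description, with no test of the family as a whole. The contrasts of TC20 and TC15 against TC10 share the 2 TC10 libraries, so a gene with unusual TC10 values appears in both. Of the 50 entries, 25 were positive when TC20 was set against TC10, 23 in TC20 against TC15 and 22 in TC15 against TC10. Scaling by total reads moved the median of all entries by 0.07, -0.06 and 0.13 in these contrasts, and 29, 18 and 28 ABC entries were then positive.

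Subfamily I held the member with the smallest p between treatments. AB17I is the Arabidopsis relative of rice STAR1, the ATPase subunit of a transporter that rice roots need to tolerate aluminium. It had 245, 220.3 and 159.6 normalised reads in TC20 plants 3, 5 and 9, against 453 and 839 in TC10 plants 2 and 4. The 3 TC15 plants had 387, 286 and 454. All 3 TC20 libraries lay below the other 5, a pattern shown by 1 ABC entry of 50 and by 1.44% of all entries, while the TC15 and TC10 values overlapped. AB17I averaged 646 ± 273 in TC10 (n = 2), 376 ± 84.6 in TC15 (n = 3) and 208 ± 44.0 in TC20 (n = 3).

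The AB17I difference in TC20 against TC10 was -1.58 on the log2 scale (SE 0.33, limma adjusted p = 0.837), and 8 of the 4801 entries had a smaller p. DESeq2 gave -1.63 with an adjusted p of 0.0120, and an adjusted p of 0.0172 in its likelihood ratio test across the treatments, so AB17I fell by that test. With limma and edgeR the adjusted p in TC20 against TC10 stayed between 0.320 and 0.972 over the planned settings. The limma difference was -1.14 without TC10 plant 4 and -1.40 without TC20 plant 9, and DESeq2 was not repeated without single libraries. TC20 against TC15 gave -0.85 (SE 0.30, limma adjusted p = 0.790). TC15 against TC10 gave -0.74 (SE 0.33, limma adjusted p = 0.731), and -0.29 without TC10 plant 4.

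**Figure D1:**
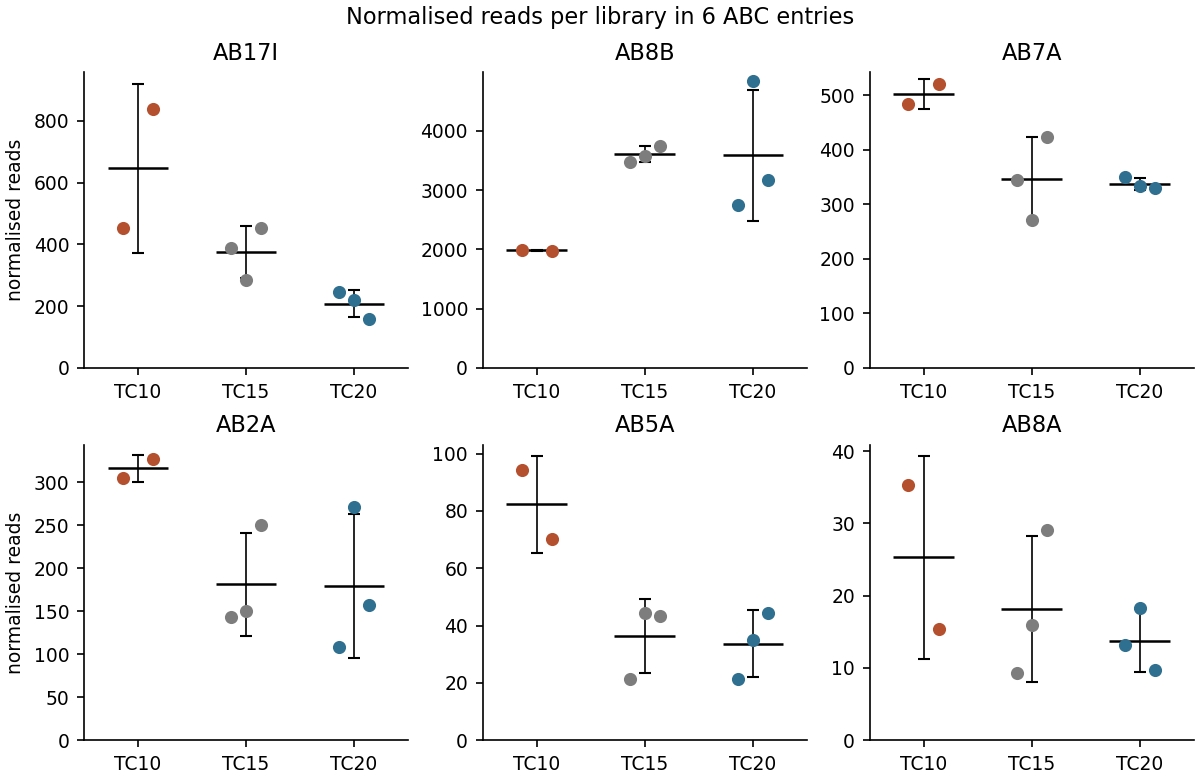
Normalised reads of AB17I, AB8B and the 4 entries of subfamily A in each of the 8 libraries, with 1 point per plant, a line at each treatment mean and bars of 1 SD, for TC10, TC15 and TC20 in order of compost. All 3 TC20 points of AB17I lie below the other 5, and both TC10 points of AB8B, with a mean of 1985, lie below its 6 others.

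The other 4 entries of subfamily I varied less, and the median of all 5 was 0.14 in TC20 against TC10, with 4 positive. AB7I, the plastid SufD protein that helps build iron-sulfur clusters, had 745, 989.7 and 778 normalised reads in TC20 against 734, 729.6 and 644 in TC15. AB20I, a soluble protein of the endoplasmic reticulum surface, had 93.2, 76.9 and 112 in TC20 against 66.2, 56.5 and 71.5 in TC15. Neither overlapped between these groups, with differences of 0.24 (SE 0.15) and 0.52 (SE 0.24) and a limma adjusted p of at least 0.790. Without TC20 plant 5 the AB7I difference was 0.12. Together with AB29B they were the 3 ABC entries of 50 with every TC20 library above every TC15 library, against 6.98% of all entries. AB6I, the partner protein SufC, stayed between 129.7 and 170.5, and AB19I between 292 and 393.

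Subfamily A, whose relatives in animals move lipids, had negative differences in all 4 entries. In TC20 against TC10 the median log2 difference was -0.84, beside 0.00 over all entries. In TC15 against TC10 the median was -0.70, again with 4 of 4 negative, and in TC20 against TC15 it was -0.09. Scaling by total reads left all 4 negative in both contrasts with TC10, at medians of -0.71 and -0.56. None passed the test, and subfamily A held only 5465 reads in all.

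AB7A had 483 and 521 normalised reads in TC10, 345, 271 and 423 in TC15, and 349.5, 333 and 329 in TC20. AB2A had 305 and 328 in TC10, 144, 149.9 and 251 in TC15, and 108, 272 and 157 in TC20. AB5A, chosen after its values were seen as the next member of the subfamily, had 94.3 and 70.3 in TC10, 21.5, 44.2 and 43.2 in TC15, and 21.3, 35.0 and 44.5 in TC20. In all 3 the TC10 libraries lay above the other 6 without overlap, which 3.56% of all entries showed. In TC20 against TC10 the differences were -0.57 for AB7A (SE 0.21), -0.92 for AB2A (SE 0.41) and -1.31 for AB5A (SE 0.47), each at a limma adjusted p of 0.918. Without TC20 plant 3 the AB2A difference was -0.61. AB8A, the fourth, had overlapping values of 9.33 to 35.3.

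Subfamily B was the largest by reads and held the entry with the clearest opposite pattern. AB8B had 1992 and 1977 normalised reads in TC10, 3479.6, 3578 and 3747 in TC15, and 2757, 4844 and 3174 in TC20. Both TC10 libraries lay below the other 6, as they did in 4 ABC entries of 50 and in 3.12% of all entries. The difference was 0.81 in TC20 against TC10 (SE 0.24, limma adjusted p = 0.918) and 0.86 in TC15 against TC10 (SE 0.24, adjusted p = 0.731). TC20 and TC15 overlapped (-0.05, SE 0.22). The TC20 mean of 3592 ± 1105 (n = 3) leans on plant 5, and without it the difference from TC10 was 0.58.

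Of the 13 tested entries of subfamily B, AB8B included, 9 were negative and 4 positive in TC20 against TC10 (median -0.04), and 9 were negative and 4 positive in TC15 against TC10 (median -0.19). With scaling by total reads, 6 were negative and 7 positive in TC20 against TC10 (median 0.03), and 7 were negative and 6 positive in TC15 against TC10 (median -0.06). AB29B had 1661, 1167 and 1190.0 normalised reads in TC20 against 755, 834 and 1102 in TC15, a difference of 0.58 (SE 0.25, limma adjusted p = 0.790). AB26B had 208, 261 and 202 in TC20 against 355 and 266 in TC10, a difference of -0.47 (SE 0.21, limma adjusted p = 0.918), and of -0.26 without TC10 plant 2.

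Of 7 listed carriers of auxin or organic acids in subfamily B, 4 were found, and all 4 were tested. AB1B, which exports auxin from cells, had 4131, 2555 and 2586 normalised reads in TC20 against 2497 and 3162 in TC10 (0.10, SE 0.26). AB15B, needed for normal auxin transport in the stem, ranged from 1301 in TC20 plant 9 to 6121 in TC20 plant 5, so its lowest and highest library shared a treatment. AB21B, which moves auxin in either direction, had 2166, 2632 and 1396 in TC20 against 2575 and 2029.7 in TC10. AB19B, the fourth, lay between 178 and 406. The limma adjusted p of these 4 was at least 0.905 in the pairwise contrasts. Of 21 auxin carriers and partners outside the family only LAX2 and PIN8 were listed, and neither passed in any comparison.

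Subfamily C contributes vacuolar pumps. AB14C had 3215, 2182 and 3309 normalised reads in TC20 against 1836 and 2087 in TC10, with no overlap (0.54, SE 0.28, limma adjusted p = 0.918). AB10C had 2289.7, 2609 and 2874 in TC20 against 1921 and 2095 in TC10, again without overlap (0.36, SE 0.25, limma adjusted p = 0.918). AB5C, which loads phytate, a phosphate store that binds metals, into vacuoles, had 1942 and 1245 in TC10, 855, 789 and 1407 in TC15, and 729, 1046 and 1908 in TC20. Its groups overlapped in every pair. Of 10 phytate synthesis enzymes IPPK and IPMKB were listed. IPMKB, an inositol phosphate kinase, had 635, 573 and 787 in TC20 against 275 and 344 in TC10 (1.10, SE 0.21, limma adjusted p = 0.718). IPPK did not go with it, at -0.05 (SE 0.23) in the same contrast.

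No overlap was seen for 7 ABC entries with TC20 above TC10, AB8B, AB12B, AB10C, AB14C, AB28G, AB38G and AB6I, and 9.31% of all entries did the same. The 5 with TC20 below TC10 were AB2A, AB5A, AB7A, AB26B and AB17I, beside 9.23% of all entries. In TC15 against TC10, 6 were above (all entries 12.4%) and 5 were below (12.3%). In TC20 against TC15, AB17I alone was below (5.89%). No ABC entry had all 3 TC20 libraries above the other 5, as 2.21% of all entries did.

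**Figure D2:**
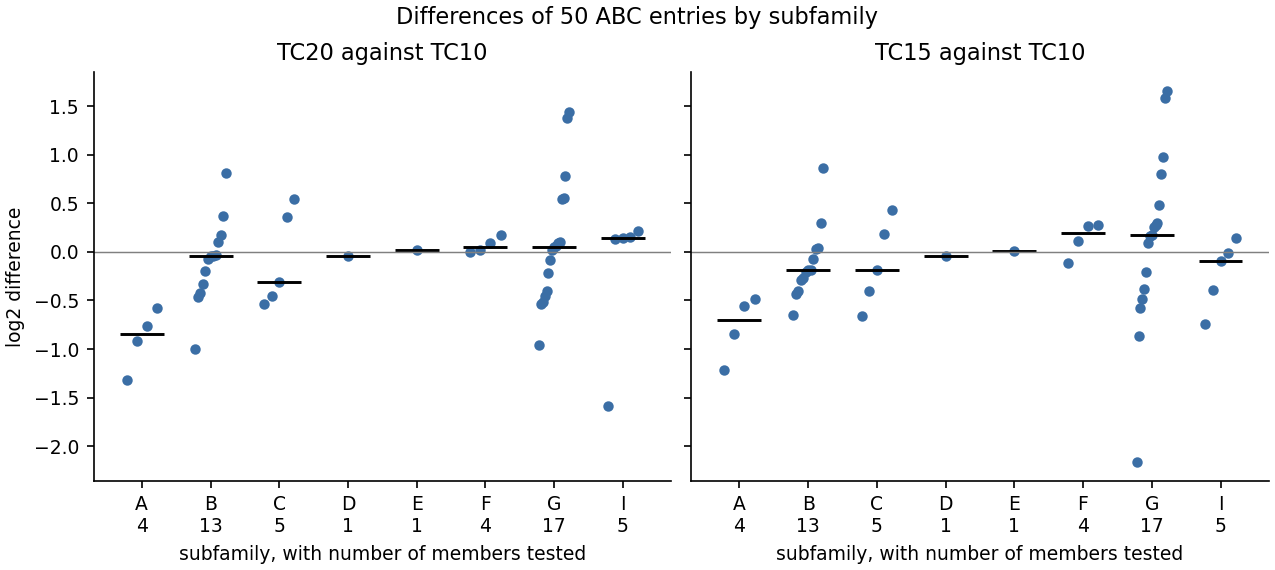
Log2 differences between treatments for the 50 tested ABC entries, 1 point per entry by subfamily, with each subfamily's median. All 4 points of subfamily A lie below 0 in both contrasts with TC10, at medians of -0.84 and -0.70, while B, C, F and G scatter on both sides of 0 in at least 1 contrast.

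Subfamily G held mainly entries with few reads, and its median difference was 0.05 in TC20 against TC10 and 0.18 in TC15 against TC10, with 10 and 11 of 17 positive. AB38G (chosen with its values known) had 30.5 and 10.6 normalised reads in TC10, 73.7, 62.6 and 38.8 in TC15, and 58.8, 36.7 and 53.2 in TC20. Its TC10 libraries lay below the other 6. The difference was 1.38 in TC20 against TC10 (SE 0.52, limma adjusted p = 0.918) and 0.66 without TC10 plant 4. AB28G had 533, 887 and 463 in TC20 against 404 and 418 in TC10 (0.55, SE 0.27), also without overlap, and the difference was 0.27 without TC20 plant 5.

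Of 9 listed exporters of cuticle and suberin lipids, the water-repellent polymers of outer and barrier cell walls, 5 were found and 4 were tested. AB1G, a suberin exporter of roots, had 649.8 and 1198 normalised reads in TC10, 356, 649 and 490.5 in TC15, and 812, 532 and 545 in TC20. Its TC15 values all lay below those of TC10, though 649 in TC15 plant 6 and 649.8 in TC10 plant 2 were nearly equal. The difference was -0.87 (SE 0.35, limma adjusted p = 0.731), and -0.42 without TC10 plant 4. AB32G, which helps build the cuticle, had 612, 496 and 616 in TC20 against 529.8 and 692 in TC10 (-0.08, SE 0.30). AB11G, an exporter of cuticular lipids, had 88 reads in TC10 plant 2 and 3 to 36 in the other 7 libraries, so its TC10 mean rests on 1 library. The 4 tested exporters were all positive in TC20 against TC15 (median 0.65, all entries 0.01), and 3 of 4 were negative in TC15 against TC10 (median -0.53). These contrasts share the TC15 libraries. In TC20 against TC15 the differences were 0.35 (SE 0.31) for AB1G, 0.12 (SE 0.27) for AB32G and 1.21 (SE 0.86) for AB11G. AB12G, the fourth, had 0 to 13 reads per library and a difference of 0.96 (SE 1.26). The median thus leans on the entries with few reads. TC15 plant 2 held the lowest value of AB1G (356), AB32G (379) and AB11G (2.80), and AB12G had 0 there and in TC10 plant 2. The part of that root in these signs and medians was not tested. With scaling by total reads the medians were 0.37, with 4 of 4 positive, and -0.40, with 3 of 4 negative. None passed.

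Enzymes that make suberin and wax monomers were listed for 11 of 18 names, and 10 were tested. In TC15 against TC10, 9 of the 10 were negative (median -0.35, all entries -0.00), and in TC20 against TC15, 8 of 10 were positive (median 0.28). C86B1, a cytochrome P450 of suberin synthesis, had 132, 327 and 249.7 normalised reads in TC15 against 381 and 489 in TC10 (-0.97, SE 0.38, limma adjusted p = 0.731). C86A1, C86B1, GPAT4, GPAT5, HHT1, KCS2 and LACS4 had their lowest value in TC15 plant 2, and FACR4, LACS1 and LACS2 had it elsewhere. The part of that root in these signs and medians was not tested. None of these enzymes passed. Here too the TC15 libraries enter both contrasts, so their opposite signs are not separate observations. With scaling by total reads 8 of 10 were negative in TC15 against TC10 (median -0.21) and 8 of 10 positive in TC20 against TC15 (median 0.22).

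Of 7 listed transporters of abscisic acid, cytokinin or auxin precursors in subfamily G, 4 were tested. AB14G, which carries cytokinin made in roots toward the shoot, had 496 and 625 normalised reads in TC10, 504, 1651 and 1106 in TC15, and 563, 1250.2 and 1236 in TC20. The low values were spread over all 3 treatments (TC20 against TC10 0.78, SE 0.53, limma adjusted p = 0.918). AB40G, an importer of abscisic acid whose loss makes Arabidopsis sensitive to lead, had 33.4, 27.1 and 30.4 in TC20 against 54.3 and 29.9 in TC10 (-0.40, SE 0.46). AB31G and AB37G lay between 23.3 and 63.5 and between 11.6 and 64.4, with overlapping treatments.

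The soluble ABC proteins of subfamilies E and F follow. AB2E, the factor that splits ribosomes for reuse, had 1946 and 2022 normalised reads in TC10, 1912, 2048 and 2025 in TC15, and 2034, 1958 and 2034 in TC20. Its coefficient of variation over the 8 libraries was 2.54%, beside 2.22% from read counting alone, and no other of the 4801 entries had a smaller SD on the log2 scale. Under scaling by total reads it was 7.83% and 90 entries had a smaller SD, so this rank depends on the deposited scaling. The difference in TC20 against TC10 was 0.02 (SE 0.13).

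Subfamily F, relatives of the yeast translation regulator GCN20, had a median coefficient of variation of 16.6% over 4 entries, beside 23.3% over all entries. Its median level was 1813 normalised reads, beside 391 over all entries, so these spreads are not matched by level. AB4F stayed between 1135 and 1441 normalised reads. AB1F had 2513, 2713 and 1619.9 in TC20 against 2172 and 2011 in TC10, and AB3F had 3101, 2153 and 2408 against 1788 and 2807. Both overlapped between these groups. The subfamily's median difference was 0.05 in TC20 against TC10, with 4 of 4 positive and none above 0.17. AB1D, the peroxisomal importer of fatty acyl substrates and the only entry of subfamily D, varied by 8.74%. The medians were 44.8% for A, 39.8% for G, 38.8% for C, 28.8% for B and 13.0% for I, where AB17I alone reached 56.4%. Subfamily G also has the lowest median level, at 45.6 normalised reads, where counting error is larger.

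**Figure D3:**
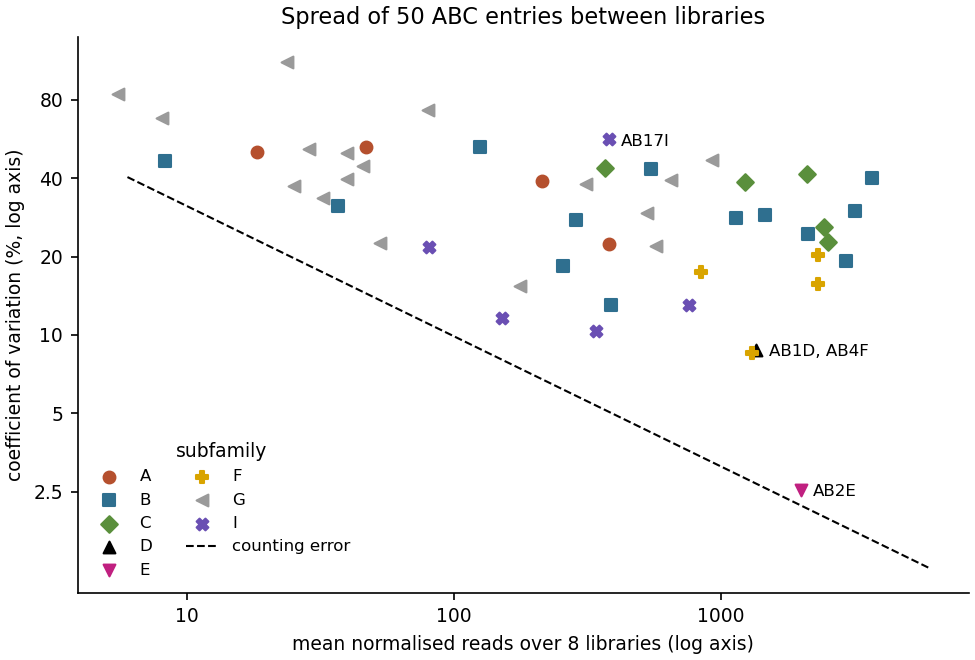
Coefficient of variation over the 8 libraries (percent, log axis) against mean normalised reads (log axis) for the 50 tested ABC entries, with a symbol per subfamily and a dashed line for counting error. AB2E, at 2.54%, lies nearest the line among the entries with many reads, and AB17I, at 56.4%, lies far above the other entries of subfamily I.

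Root metals were then compared within the same 8 plants. Zinc was 491 and 637 µg/g in TC10 plants 2 and 4, 373, 565 and 1075 in TC15 plants 2, 6 and 10, and 215, 277 and 174 in TC20 plants 3, 5 and 9. All 3 TC20 roots held less zinc than the other 5, so compost level and root zinc cannot be told apart in a slope over all plants. Arsenic was 129 to 171 µg/g in TC10, 36 to 216 in TC15 and 65 to 107 in TC20. Lead was 52 to 70 µg/g in TC10, 10 to 56 in TC15 and 31 to 59 in TC20, and TC15 plant 2 was lowest in both.

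At an unadjusted limma p under 0.05, 2 of 50 ABC entries had a slope on zinc (all entries 4.25%), 4 on arsenic (5.1%) and 7 on lead (6.87%). The median slope over the 50 was 0.05 per doubling of zinc, with 31 positive, 0.10 for arsenic, with 33 positive, and 0.10 for lead, with 34 positive, beside 0.00 for each metal over all entries. All 4 entries of subfamily A had positive slopes on all 3 metals, with medians of 0.36, 0.52 and 0.50. AB2A, AB5A and AB7A were highest in TC10, whose roots also held more arsenic than every TC20 root, so compost level enters that slope too. The 3 metals were measured in the same roots, so their slopes are not separate observations. All 5 of subfamily C were positive on arsenic and lead, at medians of 0.33 and 0.21. With scaling by total reads, 4 of 5 were positive on lead. TC15 plant 2, the root with the least arsenic and lead, had the lowest subfamily C sum, at 6333 normalised reads. The part of that root in these medians was not tested. F stayed within 0.08 of 0 in each median.

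Of 13 ABC entries listed for metal or metalloid transport or tolerance, AB3C, AB6C, AB7C, AB40G and AB17I were found. AB3C, AB40G and AB17I were tested, and all 3 had positive slopes on zinc. AB17I and AB40G are described above by tolerance of aluminium and lead, and are not named as carriers of a metal. For AB17I the slope per doubling of zinc was 0.65 (SE 0.20, limma adjusted p = 0.918). With treatment as a covariate the slope was 0.37 (SE 0.28, limma adjusted p = 0.666). On arsenic it was 0.32 (SE 0.30), with 0.10 without TC10 plant 4 and 0.98 without TC15 plant 2. On lead it was 0.11 (SE 0.29), with -0.01 and 0.94 without those plants.

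AB3C, a vacuolar pump for glutathione conjugates that responds to cadmium in Arabidopsis, had 2051 and 2715 normalised reads in TC10, 1396, 1683 and 3837 in TC15, and 2007, 2162 and 996 in TC20. The treatments overlapped, and within each of them the order of AB3C was the order of root zinc. That order held for 3 ABC entries of 50, AB3C, AB15B and AB28B, and for 3.62% of all entries. Per doubling of zinc the AB3C slope was 0.51 (SE 0.16, limma adjusted p = 0.918) and 1.08 with treatment as a covariate (SE 0.21, adjusted p = 0.201). With 1 library left out, the slope without that covariate was 0.37 to 0.63. Without both TC15 plant 10 and TC20 plant 9, the plants with the most and the least zinc, it was 0.09 (SE 0.23). The slope thus leans on those plants together, though the fit without both covers a narrower range of zinc.

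The remaining entries of the metal list had few reads. AB40G had a slope of 0.03 on zinc (SE 0.23) and 0.34 on lead (SE 0.19, limma adjusted p = 0.732). AB7C had 1 to 8 reads in the 6 libraries of TC15 and TC20, against 35 and 10 in TC10. AB6C had 1 to 6 reads in those 6 libraries, against 16 and 4 in TC10. Both were below the level tested, and TC10 plant 2 gave the highest count of each. None of the 4 enzymes of glutathione and phytochelatin synthesis that were looked for was listed.

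AB15B had 2396 and 4222 normalised reads in TC10, 3364, 3522 and 4992 in TC15, and 3710.2, 6121 and 1301 in TC20, in the order of zinc within each treatment. Its slope over all plants was 0.37 (SE 0.24, limma adjusted p = 0.918). AB28B lay between 341 and 501, with a slope of 0.14 (SE 0.08), which was 0.05 without TC15 plant 10. The opposite order was held by AB9G alone (all entries 4.92%).

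**Figure D4:**
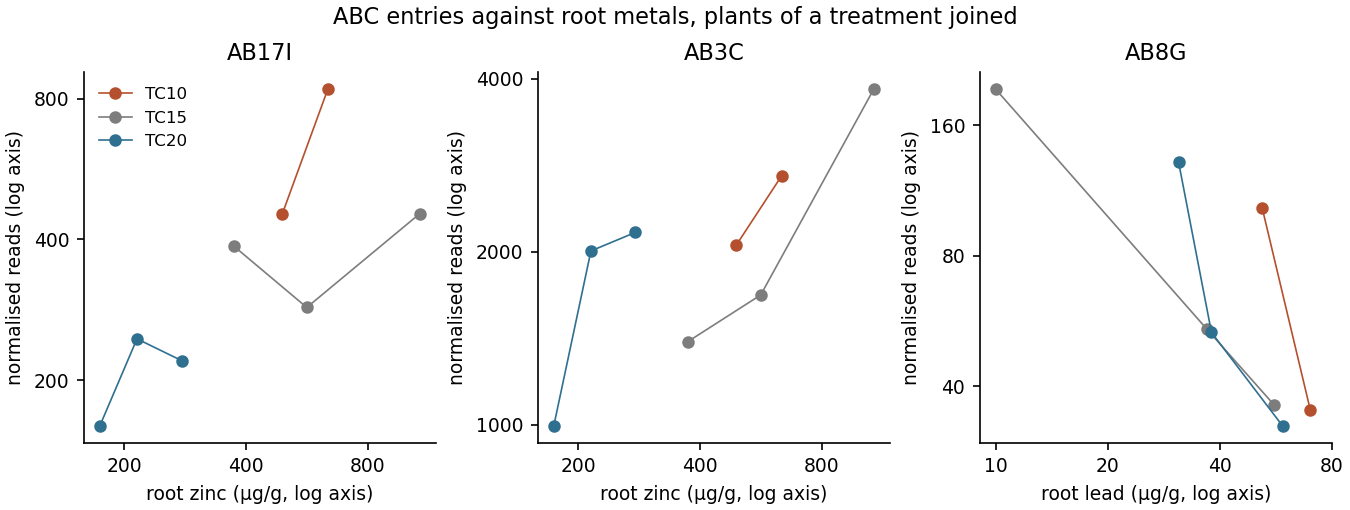
Normalised reads of AB17I and AB3C against root zinc and of AB8G against root lead (µg/g, all axes log), 1 point per plant, coloured by treatment, with plants of a treatment joined in order of the metal. The outermost AB3C points are TC15 plant 10 and TC20 plant 9, and AB8G is lower at higher lead along each of the 3 lines.

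On lead, AB8G had the smallest p of the family. It had 35.3 and 103 normalised reads in TC10, 194, 54.0 and 36.2 in TC15, and 132, 32.3 and 53.2 in TC20, so that within each treatment the root with more lead had less AB8G. That order was held by 1 ABC entry of 50 and by 1.08% of all entries, and the opposite one by AB8B alone (0.916%). The slope was -0.88 per doubling of lead (SE 0.24, limma adjusted p = 0.542) and -1.14 with treatment as a covariate (SE 0.26). Without TC15 plant 2 it was -1.23 (limma adjusted p = 0.927). On arsenic the slope was -0.84 (SE 0.31, limma adjusted p = 0.938), and -0.46 without TC15 plants 2 and 10.

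Positive slopes on lead were found for AB21B (0.32, SE 0.12), AB11B (0.31, SE 0.12) and AB2A (0.46, SE 0.18), and, chosen after their values were seen, for AB5A (0.60, SE 0.23), AB12B (0.58, SE 0.19) and AB11G (1.06, SE 0.42). Each had a limma adjusted p of at least 0.610. AB11B had 2333 and 1342 normalised reads in TC10, 979, 1711 and 1351 in TC15, and 1315, 1577 and 1109 in TC20. AB12B held 12.1 in TC15 plant 2 and 32.8 to 51.6 in the other 7 libraries, and its slope was -0.06 without that plant. Without TC15 plant 2 the lead slope was 1.32 for AB2A and 1.10 for AB5A. Without both TC10 plant 2 and TC15 plant 2 it was 0.12 for AB11B and -0.45 for AB11G. On arsenic AB2A (0.50, SE 0.20) and AB5A (0.66, SE 0.25) had positive slopes, as did AB31G, an abscisic acid transporter (0.51, SE 0.21), all at a limma adjusted p of 0.938. AB9B had an arsenic slope of 0.47 (SE 0.22). Without TC15 plant 2 the arsenic slope was 0.79 for AB2A and 0.71 for AB9B. That root, with the least arsenic and lead, held the lowest value of 15 of the 48 tested ABC entries that were lowest in 1 library alone, and of 755 of the 4731 such entries overall. The order of root arsenic within each treatment was held by AB31G and AB6I (all entries 2.17%) and its reverse by none of the 50 (2.08%).

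**Figure D5:**
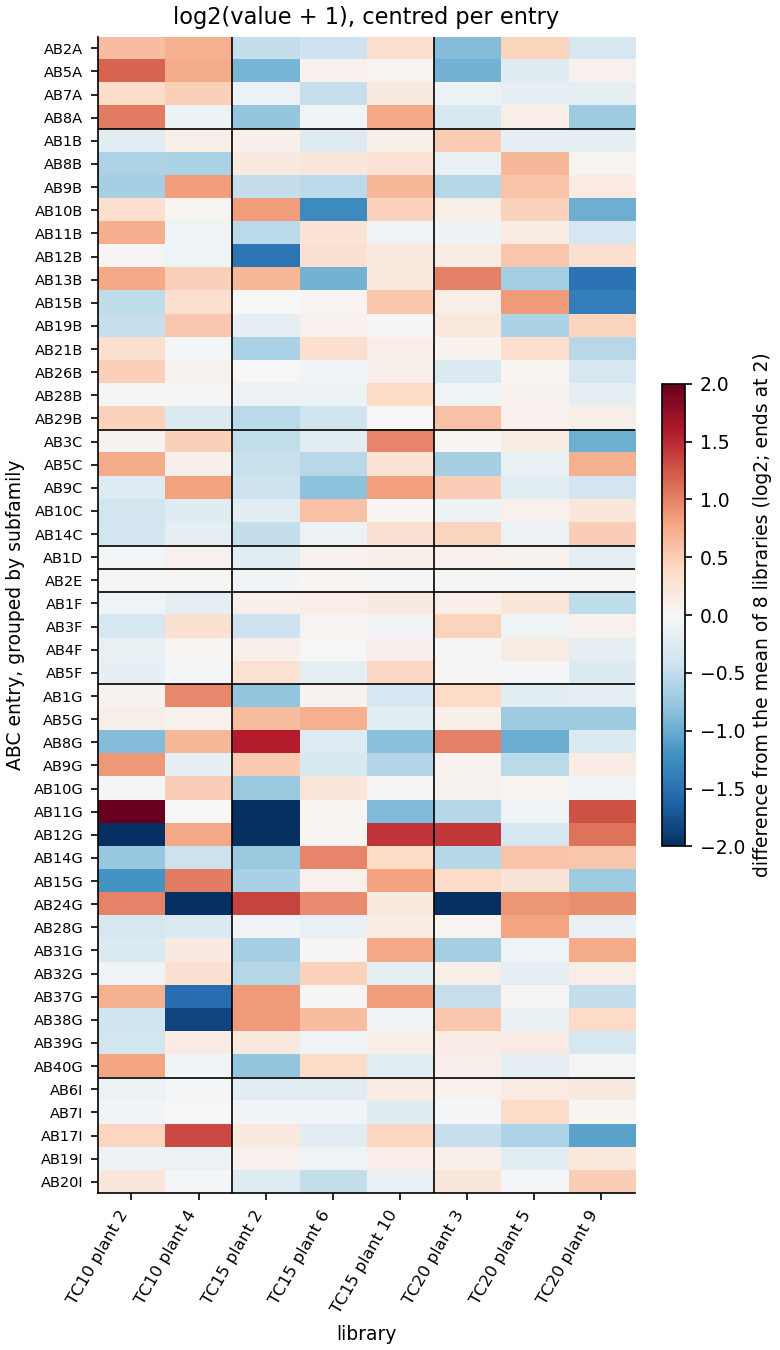
Difference of each tested ABC entry from its own mean over the 8 libraries (log2, colour), with entries grouped by subfamily in rows and libraries in columns by treatment. AB2A, AB5A and AB7A are high in both TC10 columns, AB17I is low in the 3 TC20 columns, and TC15 plant 2 holds the lowest value of 15 entries.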

How the data were processed

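RNA of 8 quailbush root libraries was compared, and the members and gene lists were chosen with earlier results of these data known. The submitters' processing notes name kallisto, DESeq2, FastQC and Trim Galore. Versions, the reference transcripts and how Arabidopsis protein names were assigned are not stated in the sources. The deposited files give a normalised signal for each entry and library. In each library 100% of the deposited signal values were whole multiples, within 0.001 of a read, of the value of 1 read (0.874 to 1.23), so reads were recovered by dividing by that factor. Values are not corrected for transcript length, and entries that a file does not list were set to 0. The file given for TC10 plant 5 was left out because it repeats TC15 plant 6. Replicates are separate plants per the labels.

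The test was limma 3.58.1 (R 4.3.3, empirical Bayes trend) on log2(value + 1) for entries that reached a value of 10 in 2 or more libraries. This scale understates the change of low entries. Benjamini-Hochberg adjustment ran over all 4801 entries, and metal slopes are per doubling of µg/g. The recovered counts were also tested with edgeR 4.0.16 and with DESeq2 1.42.0, the second without a prior filter. On simulated counts, limma was checked for TC20 against TC10, TC20 against TC15 and the zinc slope, and edgeR for TC20 against TC15. DESeq2 was not checked on them. Other settings were a pseudocount of 0.1, no filter, a filter at 50, scaling by total reads, each library left out, and for slopes treatment as a covariate, µg/g unlogged and the 2 plants farthest from the median metal left out. Counting errors cover read counting only, since the reads carry no molecular identifiers.

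Named entries, 29 in all, were chosen by rule. They were the 3 with the highest mean in each of subfamilies B, C, F, G and I, with AB14C, AB3C and AB5C. Added to them were the 4 with the smallest p in each of 7 comparisons at a mean of at least 50. Any member called by a tool and the entries found from the metal list completed them. AB5A, AB8A, AB12B, AB19B, AB9G, AB11G, AB12G, AB28G, AB31G, AB37G, AB38G, AB1D, AB2E, AB6I and the entries below the tested level were chosen after their values were seen. Of 8 subfamily I proteins listed for plastid assembly and lipid import AB6I and AB7I were found, and of 8 soluble proteins of subfamilies E and F 5 were found. Of 14 iron-sulfur assembly proteins NIFU1 and NIFU3 were found, and neither passed. No promoter, protein or genome sequence was used here.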

Additional observations from a re-analysis of the deposited data

How the results depend on the processing

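No paired analysis was possible because no pair of treatments shares 2 plant numbers among the libraries used, and the numbers only name plants. The count of 0 ABC entries with limma held under each planned setting run with limma or edgeR, and it was 1 with DESeq2 across the treatments and 1 in TC20 against TC10 (AB17I, where the adjusted p stayed at 0.320 or more under the other settings). At an unadjusted p under 0.05 the counts ranged over settings from 2 to 6 across the treatments, 4 to 7 in TC20 against TC10, 0 to 2 in TC20 against TC15, 3 to 7 in TC15 against TC10, 1 to 3 for zinc, 1 to 7 for arsenic and 2 to 9 for lead.

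Signs turned as follows, and the cause was not tested. With 1 library left out, AB11G ranged from -2.14 to 0.23 in TC20 against TC10 (highest without TC10 plant 2). AB3C ranged from -0.64 to 0.088 in TC20 against TC15 (0.088 without TC15 plant 10, 0.0014 without TC20 plant 9) and from -0.62 to 0.11 in TC15 against TC10 (0.11 without TC15 plant 2, 0.02 without TC10 plant 4). AB8A ranged from -1.06 to 0.085 in TC15 against TC10 (highest without TC10 plant 2). Slopes on lead ranged from -0.061 (without TC15 plant 2) to 0.67 for AB12B and from -0.0092 (without TC10 plant 4) to 0.94 for AB17I, which was -0.039 with treatment as a covariate, and AB11G was -0.45 without TC10 plant 2 and TC15 plant 2. Leaving out a TC10 library leaves 1, which is then assumed to vary like the other treatments. Over single libraries left out, AB17I ranged from -2.03 to -1.14 in TC20 against TC10 and AB8B from 0.58 to 0.98. Counting error is larger for entries with few reads, most of them in subfamily G.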
